A study of Mus musculus with 13 samples.

Results

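The enzymes described here make phosphatidylcholine (PC) and phosphatidylethanolamine (PE), the most abundant phospholipids of liver membranes. The members, chosen with earlier results of these data known, were matched by gene symbol: Pisd, Pemt, Pcyt1a, Pcyt2, Chka, Chkb, Etnk1, Etnk2, Cept1 and Chpt1. All 10 were found among the 11779 genes listed for the liver. The liver samples came from Balb/c mice, 5 days after an injection of GalNAc-conjugated antisense oligonucleotides (ASOs). The Liver LL35 ASO group (3 mice) received a mix of ASOs against the lncRNA LL35. The paper's main text gives their number as 5, whereas its supplementary list of ASOs for mice names 4. The paper describes its doses as totals and names the one it chose as 150 mg/kg of the mix. The labels differ from this, giving 150 mg/kg for each ASO. The Liver Luc ASO group (3 mice) received an ASO of the same kind against firefly luciferase, a gene that mice do not have. GalNAc is a sugar that the asialoglycoprotein receptor of hepatocytes takes up, while the RNA came from liver tissue with all of its cell types. The series also holds 3 AML12 Luc ASO and 4 AML12 LL35 ASO samples of a mouse hepatocyte line on day 2 after transfection, which were not analysed here.

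Each gene has a single value that could be used here, the authors' mean normalized count over the compared liver libraries. It pools the LL35 ASO and the Luc ASO livers, so no difference between the groups is given below and nothing here bears on the effect of LL35 depletion. The columns in which the authors compared the groups were not used. Values of single mice are not in this table, so the levels carry no error and no test was made of any difference between genes. The total reads per mouse are unknown, and with them the depth behind each value. Over all listed genes, the mean normalized count ran from 15.6 to 1217472, with a median of 235. No gene with a lower mean is listed, so percentiles below rank listed genes only. A gene that is not listed may still be expressed.

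Hepatocytes make PC by the CDP-choline pathway: a kinase phosphorylates choline, a second enzyme activates it with CTP to CDP-choline, and a phosphotransferase joins it to diacylglycerol. The CDP-ethanolamine pathway makes PE by the same kind of steps. PE can also be made in mitochondria, by decarboxylation of phosphatidylserine, and the liver is known for turning PE into PC by methylating it. PC from both routes goes into bile and into lipoproteins as well as into membranes.

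The members are related in sequence in 3 of these steps. Translated from the reference coding sequences of GENCODE release M21, Cept1 and Chpt1 were 64.0% identical over 386 aligned residues. Etnk1 and Etnk2 were 62.2% identical over 349 residues, and Chka and Chkb 57.6% over 389 residues. Between the choline kinases and the ethanolamine kinases, identity lay between 33.5% and 35.9%. Pcyt1a and Pcyt2, which activate different head groups, were 30.0% identical over 240 aligned residues.

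The coding sequence of the HXGH motif is shown because it sets the CTP-using enzymes apart: this motif (X is any residue) is the CTP-binding signature of the family and occurs once in Pcyt1a and at 2 places in Pcyt2. The codons of the motif are in capitals, with 3 codons on each side, 5′ to 3′ on the coding strand. In Pcyt1a the motif spans residues 89 to 92 of 367, and in Pcyt2 residues 35 to 38 and 244 to 247 of 404.
Pcyt1a, residues 89 to 92: gacttgtttCACTCTGGTCATgcccgggct
Pcyt2, residues 35 to 38: gacatggtgCATTATGGCCACtccaaccag
Pcyt2, residues 244 to 247: gacctgttcCACATCGGGCACgtggacttc

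The phosphotransferases of the last step share the CDP-alcohol phosphotransferase motif, which begins with DGXXAR. It is shown for Cept1 and Chpt1 and for Selenoi, the ethanolamine-specific enzyme of the same family, because Cept1 and Chpt1 are the most alike pair of members. The first 8 codons of the motif are in capitals. They start at residue 136 in Cept1, at residue 114 in Chpt1 and at residue 107 in Selenoi. Selenoi was 29.2% identical to Cept1 and also 29.2% identical to Chpt1.
Cept1, from residue 136: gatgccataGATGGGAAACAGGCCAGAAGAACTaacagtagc
Chpt1, from residue 114: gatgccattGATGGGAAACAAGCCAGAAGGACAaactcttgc
Selenoi, from residue 107: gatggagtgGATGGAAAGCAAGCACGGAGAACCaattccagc

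Pisd, the phosphatidylserine decarboxylase, is made as a precursor that cuts itself at an LGST motif. In the reference protein of 375 residues the motif lies at residues 342 to 345, and its codons are in capitals.
Pisd, residues 342 to 345: gagttcaacCTGGGCTCCACCatcgtgctc

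To compare genes, the mean normalized count was divided by the length of all annotated exons of the gene in kb. On this scale the median of the 10 enzymes was 174 per kb, against 51.5 per kb for the listed genes with a gene model. Of the 10 enzymes, 8 lay above the median of all listed genes and 6 above the upper quartile of 128 per kb. Pemt, Pcyt2 and Etnk2 stood at the top, Chkb and Pisd at the bottom, and the level of Pemt was 51.3-fold that of Chkb. The enzymes together took 0.124% of the summed mean normalized counts, while Alb alone took 10.8%.

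**Figure D1:**
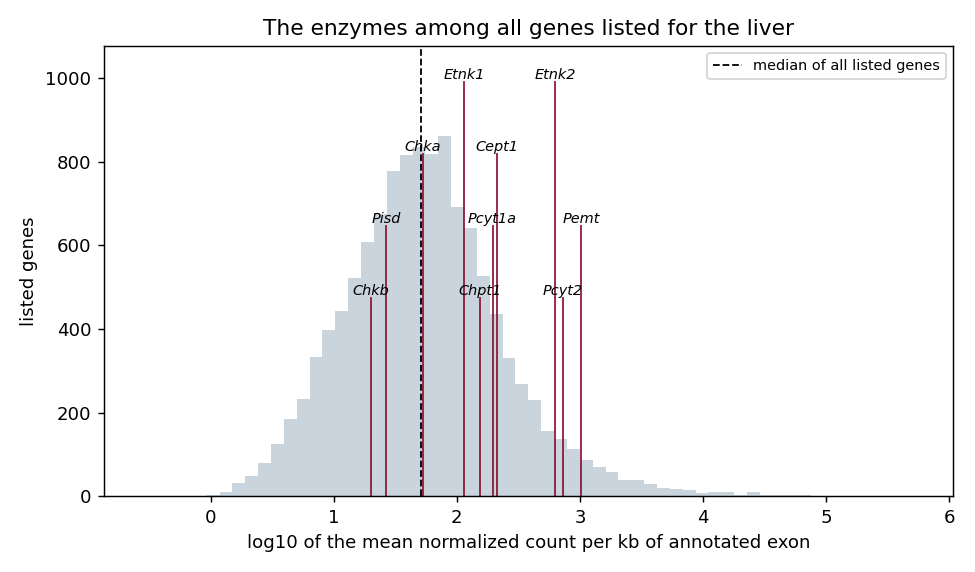
The histogram counts listed genes by the log10 of the mean normalized count per kb of annotated exon. Red lines mark the 10 enzymes (line height only separates the names) and the dashed line the median of all listed genes, 51.5 per kb; Chkb and Pisd lie left of it, Chka just right of it and the other 7 farther right.

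Pemt methylates PE to PC in 3 rounds and is mostly a hepatocyte enzyme. Its mean normalized count was 2154, and with 2.10 kb of annotated exon, the least of the 10 genes, it had the highest level per length, 1024 per kb. This placed it at the 96.5th percentile of listed genes by level per kb. Pemt was highest of the members also by longest transcript (2148 per kb) and by coding length (3608 per kb of coding sequence).

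Pisd makes PE on the inner mitochondrial membrane. Its mean normalized count was 153 and its level 26.7 per kb, at the 31.1st percentile. The level of Pemt was 38.4-fold that of Pisd per kb of exon, 43.4-fold per kb of longest transcript and 26.5-fold per kb of coding sequence.

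Pcyt1a and Pcyt2 catalyse the step that usually limits each CDP pathway. All levels given here are of RNA, and protein amount and enzyme activity were not examined. These levels therefore do not rank the branches or steps by capacity. Pcyt2, of the ethanolamine branch, was at 3159.9 mean normalized counts, or 727 per kb, at the 95.2nd percentile. Pcyt1a, of the choline branch, was at 1446 mean normalized counts, or 195 per kb, at the 83.0th percentile. Pcyt2 was 3.73-fold higher than Pcyt1a per kb of exon, 5.57-fold per kb of longest transcript and 1.99-fold per kb of coding sequence. The direction was thus the same with each length, whereas the size of the difference moved by over 1.5 times. Pcyt1b, the other gene for the reaction of Pcyt1a, was not among the listed genes.

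Of the kinases, those for ethanolamine stood above those named for choline. Etnk2 was at 2867 mean normalized counts, or 628 per kb, at the 94.4th percentile. Etnk1 was at 1629 mean normalized counts, or 115 per kb. With 14.2 kb, Etnk1 has the longest annotated exons of the 10 genes. Etnk2 was 5.45-fold higher than Etnk1 per kb of exon but 1.66-fold higher per kb of coding sequence.

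Chka, which phosphorylates choline and also ethanolamine, was at 634 mean normalized counts, or 52.8 per kb of exon, at the 50.8th percentile. Per kb of coding sequence it was at 486, the 76.6th percentile of listed genes with a coding length. Chkb, its partner in the same reaction, was at 61.1 mean normalized counts, or 20.0 per kb, the lowest of the 10, at the 24.3rd percentile. Summed, Chka and Chkb reached 72.7 per kb of exon and Etnk1 and Etnk2 743 per kb. Per kb of coding sequence the sums were 538 and 3978.

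Chpt1 and Cept1 complete PC, and Cept1 can use CDP-ethanolamine as well. Chpt1 had a mean normalized count of 1279 and Cept1 of 665. Which of them was higher depended on the length: Cept1 led with 213 against 154 per kb of exon, while Chpt1 led with 263 against 236 per kb of longest transcript and with 1071 against 533 per kb of coding sequence. No order between these genes is therefore given. Selenoi, which completes PE only, was at 1137 mean normalized counts, or 86.6 per kb of exon.

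Over all pairs of the 10 enzymes, 39 of 45 kept their order under 4 lengths (annotated exons, longest transcript, coding sequence and exon bases that no other gene shares on the strand). Pemt, Pcyt2 and Etnk2 stood above the other 7 in this order under each of these lengths. Etnk2 and Pcyt2 differed by 1.16-fold per kb of exon and by 1.05-fold per kb of coding sequence. Without values of single mice it cannot be said whether neighbours this close differ beyond the spread between livers.

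**Figure D2:**
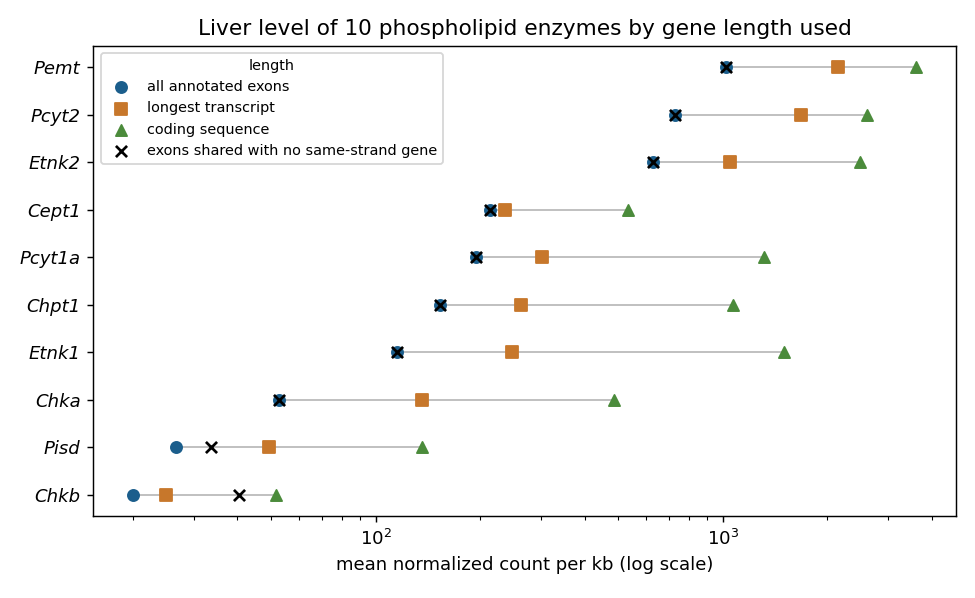
Each row is an enzyme, and the horizontal axis (log scale) gives the mean normalized count per kb for each of the lengths in the legend, pooled over both liver groups and without an error. Pemt is highest with each length, from 1024 per kb of exon to 3608 per kb of coding sequence; the crosses differ from the circles in Pisd and Chkb only, since only these share exon bases on the strand.

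The enzymes with the lowest levels, Chkb and Pisd, were also those with exons that another annotated gene shares on the same strand. In the GENCODE annotation, 1552 of the 3061 exon bases of Chkb (50.7%) also belong to Gm44502, a protein-coding gene on the same strand. Of the 5750 exon bases of Pisd, 20.9% are shared in this way, most of them (1156) with the gene Gm20671. Neither Gm44502 nor Gm20671 was among the listed genes. The gene counts of STAR leave out reads that overlap more than 1 gene. The release of the Ensembl annotation that the authors counted on is not given in the sources used here, and the part of shared exons in the levels of Chkb and Pisd was not tested.

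Among listed genes with a model, 8.45% shared any exon base with another gene on the strand and 1.49% (175 genes) shared at least 20% of them. The median mean normalized count of those 175 genes was 96.8, and that of the others 238. These counts are not divided by length, and no level per kb was computed for the 175 genes. Dividing the full count by unshared exon bases only assumes that no read in the shared bases was counted, which is not known. On that assumption, the level of Chkb was 40.5 per kb and that of Pisd 33.7 per kb, which turned their order. Chka then stood 1.30-fold above Chkb, instead of 2.64-fold over all exon bases and 9.40-fold over the coding sequence. Another 4 members share 1.42% to 9.09% of exon bases with genes on the opposite strand (Pcyt1a, Chka, Etnk1, Chpt1), and Cept1 shares 24.9%, nearly all with Dennd2d. The libraries were made with a directional kit, but whether the counting used strand is not given in the sources used here. Without strand, reads in the bases that Cept1 shares with Dennd2d would have been left out of both counts, which was not tested. The unshared length takes out same-strand bases only and so makes no allowance for this.

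**Figure D3:**
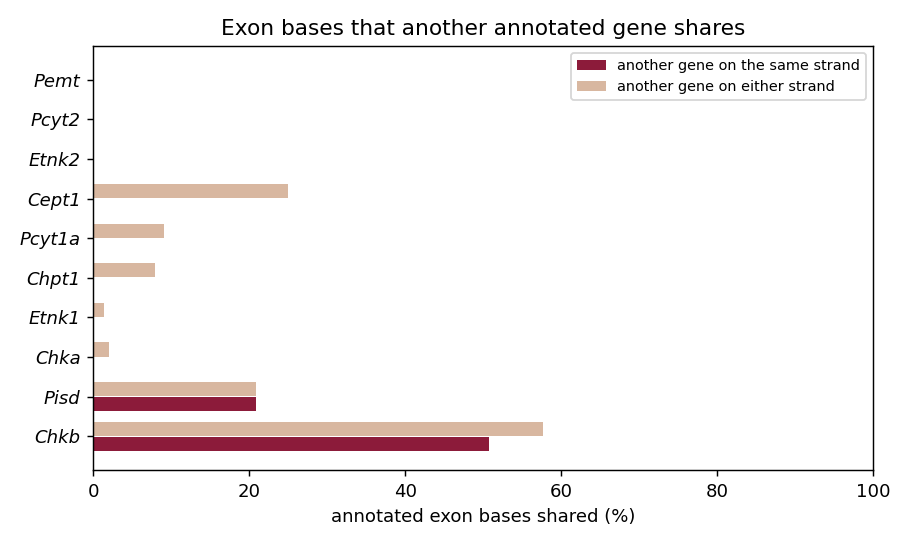
Bars give the percent of each enzyme's annotated exon bases that another annotated gene shares, on the same strand (dark) or on either strand (light), in the order of level per kb. Only Pisd (20.9%) and Chkb (50.7%) have dark bars, and both stand at the bottom of the order.

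The start sites of the enzymes differ in their content of CG dinucleotides, the site of DNA methylation in mammals. RefSeq windows of 300 bases (250 before and 50 after a start site, build GRCm38.p6) were found for 9 of the 10 members, 15 windows in all. Pcyt2 had none. The richest window of a listed gene held 22 CG at the median (9326 genes), and over all windows of the build the median was 7. Pemt, the member with the highest level per length, held 2 and 3 CG in its windows, and 5.59% of listed genes had no more than 3 in their richest window. The richest windows of the other 8 members held from 14 (Chkb) to 38 (Etnk1), and 6 of the 9 members lay above the median of listed genes. Some members also have a poor window: 1 of the 3 start sites of Cept1 held 0 CG and 1 of those of Pisd held 5. The letters TATAAA, searched on both strands, were found in 1 of the 15 windows, that of Chkb, against 13.6% of all windows. That share includes windows of genes not listed, and the share among listed genes was not computed.

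The richer window of Pemt and the window of Etnk1 are shown since they are the extremes among the members, with each CG in capitals. The window of Pemt lies at chr11:60040139-60040438 on the minus strand and that of Etnk1 at chr6:143166980-143167279 on the plus strand, both in RefSeq's GRCm38.p6 and printed in the direction of the gene.
Pemt: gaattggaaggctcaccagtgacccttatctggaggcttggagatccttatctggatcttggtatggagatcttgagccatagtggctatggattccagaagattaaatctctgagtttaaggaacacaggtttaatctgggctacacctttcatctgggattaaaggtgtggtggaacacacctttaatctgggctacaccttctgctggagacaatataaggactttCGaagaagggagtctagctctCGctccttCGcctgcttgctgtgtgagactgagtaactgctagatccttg
Etnk1: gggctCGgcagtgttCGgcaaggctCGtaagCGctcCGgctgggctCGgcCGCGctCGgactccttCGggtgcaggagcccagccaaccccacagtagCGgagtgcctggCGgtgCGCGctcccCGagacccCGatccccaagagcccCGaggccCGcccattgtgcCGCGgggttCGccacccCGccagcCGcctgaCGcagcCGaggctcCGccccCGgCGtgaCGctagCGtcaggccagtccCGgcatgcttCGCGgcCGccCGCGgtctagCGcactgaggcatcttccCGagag

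**Figure D4:**
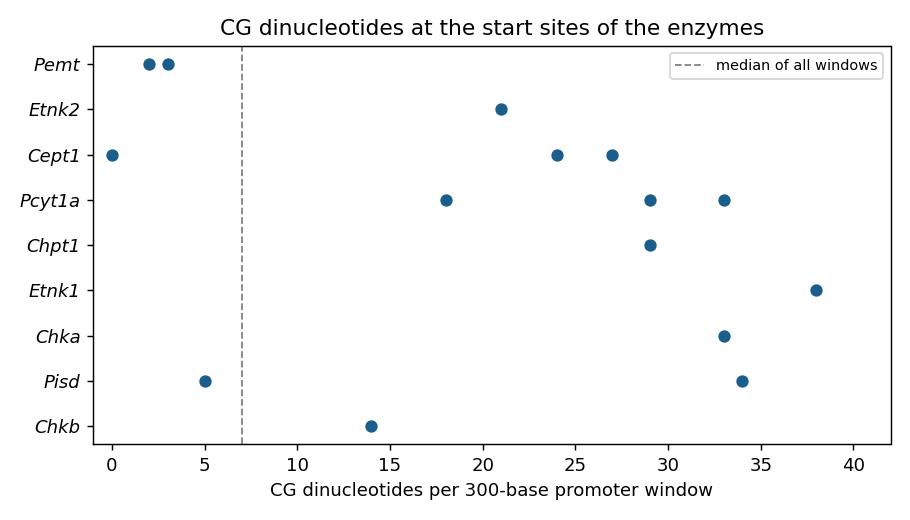
Each point is a RefSeq promoter window of 300 bases, with its number of CG dinucleotides on the horizontal axis, and the dashed line marks the median of all windows, 7. Enzymes are in the order of level per kb. Both windows of Pemt lie left of the line, while each of the other 8 enzymes has at least 1 window right of it. For the richest window of a gene, the median was 22 over listed genes and 8 over all genes.

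The genes around the pathway were taken from lists of neighbouring reactions. Phosphatidylserine is the substrate of Pisd, and of its synthases Ptdss1 was at 138 and Ptdss2 at 27.1 per kb of exon, the latter close to Pisd itself. The list for oxidation of choline and its products, which also holds the methyltransferase Bhmt, had a median of 1220 per kb. It ran from Chdh at 428 to Sardh at 1534 per kb, and all 5 genes lay above the median of listed genes. The genes that supply or use the methyl donor of Pemt had a median of 1054 per kb, from Mat2b at 71.8 to Mat1a at 22750.4 per kb. Mat1a is the liver form of S-adenosylmethionine synthetase.

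Diacylglycerol, the other substrate of Chpt1 and Cept1, is made by enzymes with a median of 497 per kb. Lpin1 was the highest of these 7 at 1235 per kb and Lpin3 the lowest at 15.7 per kb.

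Genes for transfer and export of phospholipids, a list that also holds Lcat, were at a median of 252 per kb, and all 8 were above the median of listed genes. They ran from Triap1, of a mitochondrial lipid transfer complex, at 89.2 per kb to Lcat, which esterifies cholesterol on lipoproteins with an acyl chain of PC, at 3887 per kb. Genes for breakdown and salvage had a median of 125 per kb, from Pld1 at 12.8 to Gde1 at 490.1 per kb. Of the 7 genes for exchange of acyl chains 4 were listed, from Lpcat2 at 10.1 to Lpcat3 at 224 per kb, with a median of 37.8 per kb. Of the 7 genes for ether lipids, the class that includes plasmalogens, 6 were listed, at a median of 39.7 per kb. They ran from Far1 at 10.2 to Tmem86b, which breaks down products of plasmalogens, at 183 per kb.

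**Figure D5:**
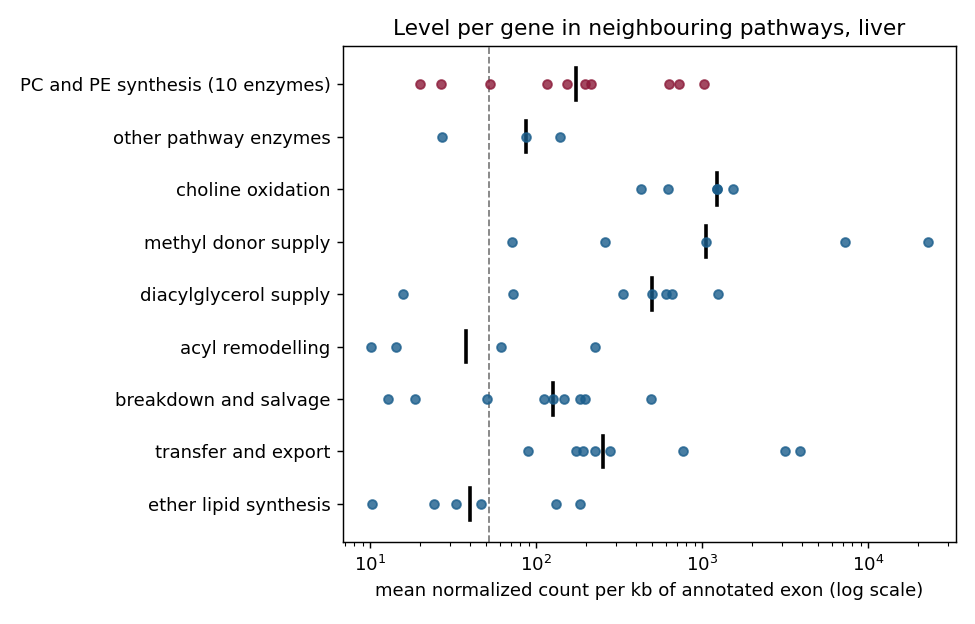
Each point is a gene, the horizontal axis (log scale) its mean normalized count per kb of annotated exon, black bars the medians of the lists and the dashed line the median of all listed genes, 51.5 per kb. The medians of choline oxidation (1220 per kb) and methyl donor supply (1054 per kb) lie to the right of that of the 10 enzymes (174 per kb). Those of acyl remodelling and of the genes for ether lipids (labelled ether lipid synthesis) lie to the left of the dashed line.

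The tissue label was checked against markers. All 8 hepatocyte markers were listed, from Asgr1, a subunit of the asialoglycoprotein receptor, at 2092 per kb to Alb at 519842.8 per kb, with Hnf4a at 2550.1, Serpina1a at 5497, Apob at 14034, Cps1 at 15344, Ttr at 23757 and Apoa1 at 65554 per kb. Endothelial markers were also present, with Clec4g at 289, Stab2 at 248, Pecam1 at 57.7 and Lyve1 at 41.4 per kb. The macrophage markers were Clec4f at 791, Csf1r at 146, Cd68 at 124 and Adgre1 at 59.9 per kb. Of stellate markers, Dcn was at 265, Lrat at 36.8, Col1a1 at 18.2 and Des at 13.8 per kb. Of the cholangiocyte markers Sox9 was listed, at 9.94 per kb, and Krt19, Krt7 and Epcam were not. In such bulk tissue, which cell types the RNA of each enzyme came from cannot be told, nor can fewer cells of a type be told apart from less RNA per cell.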

How the data were processed

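Libraries were made from rRNA-depleted total RNA with a directional kit and sequenced as single reads. Per the labels and methods, the authors aligned reads with STAR 2.5.3a, counted them on Ensembl genes and normalized them with DESeq2 (RLE method). The values used are a signal that the authors deposited, the mean normalized count of each gene over the compared liver libraries. Genome build and annotation release are not given in the sources used here. The deposited columns of fold change, its error, the Wald statistic and p-values hold the authors' comparison and were not used, so no test of the groups was made. Depth and the spread between mice are unknown.

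Members were matched by exact symbol, and other list genes also by Ensembl identifier (Tmem189 is listed as Peds1). Gene models came from GENCODE release M21 (11754 of 11779 listed genes). The main length was the union of exons. The longest transcript and the coding length of the principal transcript were alternatives, with coding lengths taken from GENCODE since no protein table was at hand. Proteins were translated and aligned with Biopython 1.88 (BLOSUM62, gap penalties 11 and 1, free end gaps). Named genes were all members, the highest and lowest gene of each other list per kb, and all markers; Selenoi and Ptdss2 are pathway enzymes, and genes sharing exons were named after the overlap was seen. Results for 1 further list of neighbouring genes are not reported here. Members and lists were chosen with earlier results of these data known. Scripts ran under Python 3.11.15 with pandas 2.3.3, numpy 2.4.6 and matplotlib 3.10.9. The merging of exons and the percentiles were tested on made-up inputs with known answers, and the sequence steps were not.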

Additional observations from a re-analysis of the deposited data

How the results depend on the processing

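All 10 members were also found by older symbols and identifiers. The log2 ratio of Chka over Chkb was 1.40 per kb of exon, 2.45 with the longest transcript, 3.23 with the coding length and 0.38 with unshared exon bases, a length chosen after seeing the data. With the coding length, Etnk1 over Etnk2 moved from -2.45 to -0.73 and Pcyt1a over Pcyt2 from -1.90 to -0.99. Chpt1 over Cept1 was -0.47 per kb of exon and turned to 0.16 with the longest transcript and to 1.01 with the coding length. The other ratios moved by less than 1.5 times. Relative to all listed genes, the median of the 10 enzymes was 3.39-fold per kb of exon and 6.99-fold per kb of coding sequence. In the same way choline oxidation moved from 23.7 to 11.7 and methyl donor supply from 20.5 to 13.4. Acyl remodelling turned from 0.733 to 1.18 and the genes for ether lipids from 0.771 to 1.13. With a minimum mean normalized count of 50, the percentiles of Pisd and Chkb by mean normalized count fell from 39.0 to 27.5 and from 19.2 to 4.07. No replicate could be left out and no paired analysis was possible because the table holds no values of single mice.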

Other observations

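The coding sequences of the enzymes differ in base composition. At the last base of each codon, G or C made up 36.1% in Cept1, 48.7% in Chpt1, 57.8% in Pcyt1a, 58.2% in Chka and 61.2% in Etnk1. It made up 67.5% in Chkb, 70.6% in Etnk2, 71.9% in Pemt, 72.3% in Pisd and 73.0% in Pcyt2. The members highest by level per kb of exon (Pemt, Pcyt2 and Etnk2) and the lowest (Pisd and Chkb) all lay in this latter set. Whether base composition goes with level was not tested.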
